A study of Homo sapiens with 10 samples.

Results

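The genes described here are the 10 epithelial-mesenchymal state genes CDH1, OCLN, CDH2, VIM, FN1, SNAI1, SNAI2, ZEB1, ZEB2 and TWIST1, among 28090 genes named on the array. They were found by their gene name in the scanner files, which gave 34 of 43376 non-control spots and 16 of 41000 probes. The rule names the genes and uses no threshold on a measured value, but the set was chosen with earlier results of these data known. In the epithelial-mesenchymal transition, cells give up cell-cell junctions and take on a motile, fibroblast-like form. E-cadherin (CDH1), which joins neighbouring epithelial cells, and occludin (OCLN), a tight junction protein, mark the epithelial state, and N-cadherin (CDH2), vimentin (VIM) and fibronectin (FN1) mark the mesenchymal state. The zinc finger factors SNAI1, SNAI2, ZEB1 and ZEB2 and the helix-loop-helix factor TWIST1 are known to repress CDH1 and to drive the transition, and prostate cancer lines are known to differ widely in where they lie between these states.

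PC-3 is an androgen-independent human prostate cancer cell line derived from a bone metastasis. Transcripts were read on 10 Agilent arrays of the whole human genome with a single dye, 2 for each of 5 groups, to ask how the kinase inhibitor gefitinib and the dietary flavonoid luteolin, alone or combined, changed transcript levels. The groups were untreated cells at 0 h, vehicle (DMSO) at 24 h, 60 µM luteolin at 24 h, 60 µM gefitinib at 24 h, and 60 µM of each drug together at 24 h. The 2 arrays of a group were labelled as biological replicates, and all 10 came from the same cell line. For 6 arrays, all those given a drug, the treatment in the sample title was not the treatment in the name of the array's own scanner file. The arrays titled luteolin had files named for gefitinib, those titled gefitinib had files named for the combination, and those titled as the combination had files named for luteolin. Groups follow the titles throughout, and each is called by its label. A result shared by all 3 drug labels does not depend on which of these names is right.

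Signal over background, not a read count, set the depth of each array. The share of probes well above background ran from 63.4% to 70.4% over the arrays. The 75th percentile of the signal, to which each array was scaled, ran from 1177 to 1402 on the 0 h and DMSO arrays, from 1041 to 1173 with the luteolin label, from 628 to 651 with the gefitinib label, and was 865 and 540 on the 2 arrays with the combination label. The combination arrays also differed most from each other, with a median SD over probes of 0.25 on the log2 scale against 0.09 for DMSO. The epithelial keratins KRT8, KRT18 and KRT19 and the adhesion molecule EPCAM were well above background on 10 of 10 arrays. Of 6 markers of other cell types, every probe of PTPRC (leukocytes) and DCN (fibroblasts) was above background on 0 arrays, and VWF (endothelium) on 0 and 1 arrays by its 2 probes. CD3E (T cells) was above background on 10 and 3 arrays by its 2 probes, PECAM1 (endothelium) on 10 and LUM (fibroblasts) on 8. CD3E and LUM were dim, with a highest signal of 95.5 and 89.1 on the brightest probe of each. PECAM1 ran from 24.2 to 292 over the arrays, so at its highest it reached the CDH1 signals with DMSO (309 and 247). The 6 markers summed to 21.57 and 21.98% of the 75th percentile at 0 h, 15.5 and 18.1% with DMSO, 20.5 and 34.6% with the luteolin label, 25.4 and 28.1% with the gefitinib label, and 23.9 and 26.9% with the combination label. All 6 drug arrays thus lay above DMSO in this sum, and its part in the changes below was not tested. Of the luminal prostate markers, TMPRSS2 was above background on 10 arrays, and KLK2 on 9 by 1 of its 3 probes. For KLK3, which encodes prostate-specific antigen, 1 of 3 probes was bright on all arrays (13030 to 22098) and the other 2 probes were never above background, so its probes disagreed.

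Of the 10 members, 9 were measured, with 14 of 16 probes kept, and no member value was saturated. The ZEB2 probe (chr2:144862731-144862790, hg18, minus strand) was above background on 0 of 10 arrays, with signals of 4.08 to 23.6, so ZEB2 had no usable level in any group and was not tested. A second SNAI2 probe was also never above background and was left out. In each comparison a member was called when the adjusted p of its brightest probe was under 0.05, by limma with Benjamini-Hochberg adjustment over all 28774 probes kept.

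The SNAI and ZEB factors bind the E-box motif CAGGTG, read CACCTG on the other strand. Promoter windows, the 250 bases before a RefSeq gene start on GRCh38.p14, were at hand for 6 members, in 14 windows counting alternative starts. The motif was found on either strand in at least 1 window of OCLN and ZEB1, and in 0 windows of CDH2, VIM, FN1 and ZEB2. Over all 35116 windows, 17.5% held it. OCLN had 1 match at each of its 2 starts, and ZEB1 had matches at 2 of its 7 starts. The windows of OCLN, an epithelial member, at its first start (chr5:69492297-69492546, plus strand) and of FN1, a mesenchymal member (chr2:215436069-215436318, minus strand), are shown 5′ to 3′ to contrast a window with the motif, in capitals, and a window without it.
OCLN: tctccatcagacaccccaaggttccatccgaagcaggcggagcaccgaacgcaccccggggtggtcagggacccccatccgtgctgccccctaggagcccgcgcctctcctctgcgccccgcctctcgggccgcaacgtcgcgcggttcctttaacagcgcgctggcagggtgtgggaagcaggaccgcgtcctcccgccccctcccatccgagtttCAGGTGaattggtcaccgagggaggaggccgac
FN1: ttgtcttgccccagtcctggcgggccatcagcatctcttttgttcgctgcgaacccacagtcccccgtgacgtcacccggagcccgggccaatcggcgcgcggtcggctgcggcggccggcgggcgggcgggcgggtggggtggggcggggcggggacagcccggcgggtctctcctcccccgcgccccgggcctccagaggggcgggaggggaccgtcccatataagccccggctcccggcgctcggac
A match describes letters in a window and is not a binding site, and a window without a match says nothing of the factor. No window is shown for CDH1, SNAI1, SNAI2 and TWIST1.

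Against DMSO, CDH1 and SNAI1 rose with each of the 3 drug labels. OCLN rose with the luteolin label and with the combination label. With the gefitinib label the mesenchymal genes CDH2, VIM and FN1 and the repressor SNAI2 rose and TWIST1 fell. On the scaled arrays, a gain of an epithelial junction gene thus stood beside a gain of a gene known to repress it. With the gefitinib label it also stood beside gains of mesenchymal genes. Without scaling between arrays, CDH1 did not pass with any label, while SNAI1 still passed with the gefitinib and combination labels. CDH2, FN1 and SNAI2 then stayed higher with the gefitinib label but did not pass. VIM turned lower there, as it did after quantile normalization, and did not pass. The counts that follow are for the scaled arrays. With the luteolin label 3 of 9 measured members passed, all higher, where 26% of all 19717 genes tested passed (14.3% higher and 11.8% lower). With the gefitinib label 6 were higher and 1 lower, where 55% of all genes passed (32.9% higher and 22.1% lower). With the combination label 3 passed, all higher, where 41.3% of all genes passed (25.1% higher and 16.2% lower). With backgrounds this high, the number of members called is not by itself a result about them. The median change of the 9 members was 0.24, 1.15 and 0.30 on the log2 scale with the luteolin, gefitinib and combination labels, beside 0.08, 0.22 and 0.16 over all genes. Of all genes, 3.07% were higher with all 3 labels.

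**Figure D1:**
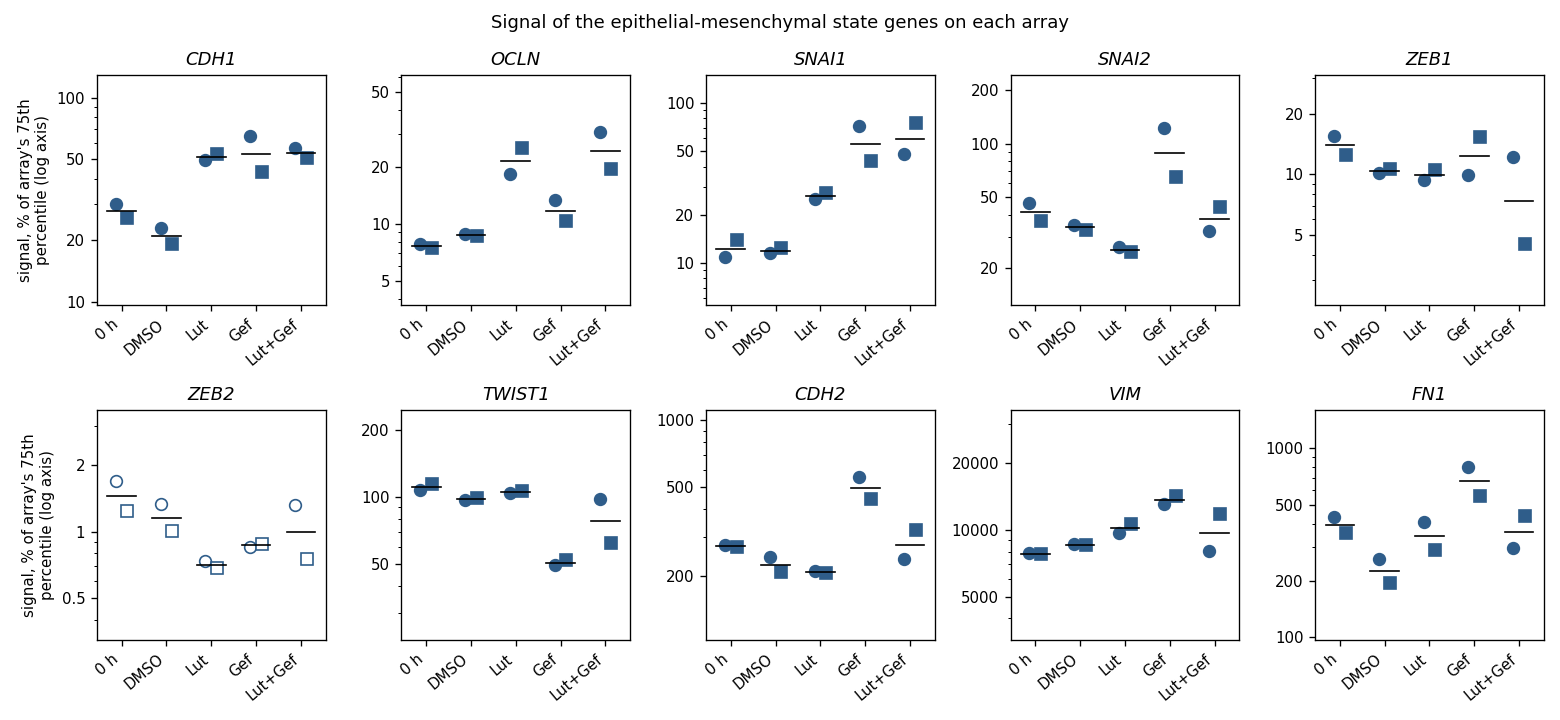
Signal of the brightest probe of each member on each array, as a percentage of the array's 75th percentile on a log axis, for the 5 groups by label (Lut, luteolin; Gef, gefitinib). Circles are replicate 1, squares replicate 2, bars the geometric mean, and open symbols arrays where the probe was not well above background; CDH1 and SNAI1 sit higher on all 6 drug arrays than on the 4 others.

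CDH1 was read by 1 probe (chr16:67426715-67426774, hg18, plus strand) spotted 10 times on each array. Its signal, as a percentage of the array's 75th percentile, was 30.0 and 25.8 at 0 h, 22.9 and 19.3 with DMSO, 49.8 and 52.9 with the luteolin label, 64.7 and 43.2 with the gefitinib label, and 56.5 and 50.9 with the combination label (replicates 1 and 2). All 6 drug arrays lay above all 4 arrays without a drug. After outlier spots were left out, 7 to 10 of the 10 spots were used on each array, with 7 on DMSO replicate 2. The spots used were close on every array, with an SD of 0.04 to 0.11 on the log2 scale. The rise was 2.44-fold with the luteolin label (log2 change 1.29 ± 0.22 SE, n = 2 arrays a group, limma with Benjamini-Hochberg adjusted p = 0.0045). It was 2.52-fold with the gefitinib label (1.33 ± 0.22, limma adjusted p = 0.0021) and 2.55-fold with the combination label (1.35 ± 0.22, limma adjusted p = 0.0032). No difference between drug labels passed in CDH1, at 0.06 (95% interval -0.43 to 0.56) for the combination against luteolin, 0.02 (-0.48 to 0.52) for the combination against gefitinib and -0.04 (-0.54 to 0.45) for luteolin against gefitinib. The 10 arrays lay on 3 slides, and gefitinib replicate 2 was on a slide with no DMSO array. On slides that held both groups the rise was 1.12 and 1.46 with the luteolin label, 1.50 with the gefitinib label and 1.30 and 1.40 with the combination label. Taken as deposited, with no scaling between arrays, the CDH1 signal was 309 and 247 with DMSO and 421 and 271 with the gefitinib label, a log2 change of 0.29 (limma adjusted p = 0.51). The changes without scaling were 1.04 (limma adjusted p = 0.086) and 0.41 (limma adjusted p = 0.35) with the luteolin and combination labels, so each CDH1 call rested on the scaling of the arrays.

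OCLN had 2 probes, both on chromosome 5. On the brighter probe (chr5:68885271-68885330, hg18, plus strand) the signal was 7.78 and 7.43% of the 75th percentile at 0 h, 8.86 and 8.60% with DMSO, 18.3 and 25.3% with the luteolin label, 13.4 and 10.3% with the gefitinib label, and 30.7 and 19.4% with the combination label. The luteolin and combination arrays lay above all others, and the gefitinib arrays lay between them and DMSO. The rise was 2.46-fold with the luteolin label (1.30 ± 0.26, limma adjusted p = 0.0088) and 2.80-fold with the combination label (1.48 ± 0.26, limma adjusted p = 0.0043). With the gefitinib label the change was 0.43 ± 0.26 and did not pass (limma adjusted p = 0.19). OCLN was lower with the gefitinib label than with the luteolin label, by 0.87 ± 0.26 (limma adjusted p = 0.019), and than with the combination label, by 1.05 ± 0.26 (limma adjusted p = 0.011). The second probe (chr5:68883142-68885185) gave 1.13, 0.37 and 1.30 against DMSO in the same order, with the same calls. With normexp background correction the gefitinib change was 0.61 and passed (limma adjusted p = 0.016), where the median over all genes was 0.37. Without scaling the change with the gefitinib label turned to -0.61 and did not pass, and the rises with the luteolin and combination labels, 1.05 and 0.54, lost their calls (limma adjusted p = 0.13 and 0.29).

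Among the repressors, SNAI1 (chr20:48038577-48038636, hg18, plus strand), which encodes Snail, changed most. Its signal was 10.9 and 13.9% of the 75th percentile at 0 h, 11.5 and 12.4% with DMSO, 25.1 and 27.2% with the luteolin label, 71.8 and 43.2% with the gefitinib label, and 47.7 and 74.9% with the combination label. The luteolin arrays lay above all 4 arrays without a drug, and the gefitinib and combination arrays lay above the luteolin arrays and overlapped each other. The rise was 2.19-fold with the luteolin label (1.13 ± 0.29, limma adjusted p = 0.024), 4.67-fold with the gefitinib label (2.22 ± 0.29, limma adjusted p = 0.00086) and 5.01-fold with the combination label (2.33 ± 0.29, limma adjusted p = 0.0015). The gefitinib label exceeded the luteolin label by 1.09 ± 0.29 (limma adjusted p = 0.012), and the combination exceeded luteolin by 1.19 ± 0.29 (limma adjusted p = 0.013). The combination and gefitinib labels differed by 0.10 (95% interval -0.57 to 0.77). The rise with the gefitinib and combination labels was also seen without scaling, at 1.18 (limma adjusted p = 0.0069) and 1.38 (limma adjusted p = 0.0046), and that with the luteolin label was then 0.88 (limma adjusted p = 0.072). The SNAI1 call with the luteolin label was lost on leaving out any of the 4 arrays compared, at changes of 1.07 to 1.19 (limma adjusted p = 0.072 to 0.13), and the OCLN call on leaving out DMSO replicate 1 or 2 or luteolin replicate 2, at changes of 1.07 to 1.32 (limma adjusted p = 0.053 to 0.072).

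SNAI2 (chr8:49993263-49993322, hg18, minus strand), which encodes Slug, moved with 1 label. Its signal was 46.5 and 36.6% of the 75th percentile at 0 h, 34.9 and 32.9% with DMSO, 26.2 and 24.8% with the luteolin label, 122 and 65.0% with the gefitinib label, and 32.2 and 44.4% with the combination label. The gefitinib arrays were the highest and the luteolin arrays the lowest, and the combination arrays lay on either side of DMSO. The rise with the gefitinib label was 2.63-fold (1.39 ± 0.30, limma adjusted p = 0.0058). The luteolin change was -0.41 ± 0.30 and the combination change 0.16 ± 0.30, and neither passed (limma adjusted p = 0.35 and 0.69). SNAI2 was lower with the luteolin label than with the gefitinib label by 1.81 ± 0.30 (limma adjusted p = 0.0013), the widest gap between 2 drug labels among the members, and lower with the combination than with the gefitinib label by 1.24 ± 0.30 (limma adjusted p = 0.010). The rise was 0.35 without scaling (limma adjusted p = 0.42).

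TWIST1 was the only member that fell against DMSO by the test, and it fell with the gefitinib label. On its brighter probe (chr7:19122025-19122084, hg18, minus strand) the signal was 108 and 114% of the 75th percentile at 0 h, 97.1 and 99.1% with DMSO, 105 and 107% with the luteolin label, 49.5 and 52.3% with the gefitinib label, and 97.9 and 62.1% with the combination label. The gefitinib arrays were the lowest, and the combination arrays spanned from the DMSO level most of the way to the gefitinib level. TWIST1 fell by 0.95 ± 0.21 with the gefitinib label (limma adjusted p = 0.0071), and the changes of 0.11 ± 0.21 and -0.33 ± 0.21 with the luteolin and combination labels did not pass (limma adjusted p = 0.75 and 0.24). It was higher with the luteolin label than with the gefitinib label by 1.06 ± 0.21 (limma adjusted p = 0.0034) and higher with the combination than with the gefitinib label by 0.62 ± 0.21 (limma adjusted p = 0.043). The fall was larger without scaling, at -1.99 (limma adjusted p = 0.0025), and the combination change was then -1.28 and passed (limma adjusted p = 0.021). A second, dimmer probe (chr7:19122170-19122229), above background on 8 of 10 arrays, gave -0.87 ± 0.40 with the gefitinib label and did not pass (limma adjusted p = 0.096). Nor did it pass between drug labels. There it gave 0.88 ± 0.40 for luteolin against gefitinib (limma adjusted p = 0.086) and 0.12 ± 0.40 for the combination against gefitinib (limma adjusted p = 0.81).

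ZEB1 (chr10:31852945-31853004, hg18, plus strand) did not pass with any label. Its signal was 15.6 and 12.5% of the 75th percentile at 0 h, 10.2 and 10.6% with DMSO, 9.34 and 10.6% with the luteolin label, 9.97 and 15.3% with the gefitinib label, and 12.2 and 4.50% with the combination label. The 2 combination arrays enclosed the DMSO arrays, and the SE of 0.42 was the widest of the measured members. The intervals against DMSO were -1.02 to 0.88, -0.71 to 1.20 and -1.44 to 0.46 with the luteolin, gefitinib and combination labels, so changes of 2-fold were within reach of each. The fit shares 1 estimate of the spread over all groups. The SD of the 2 arrays was 0.04 with DMSO, 0.13 with luteolin, 0.43 with gefitinib and 1.02 with the combination. The luteolin interval thus carries the spread of other groups. With normexp background correction the change with the gefitinib label was 0.47 (limma adjusted p = 0.048), where the median over all genes was 0.37. Without combination replicate 1 the change with the combination label was -1.21.

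**Figure D2:**
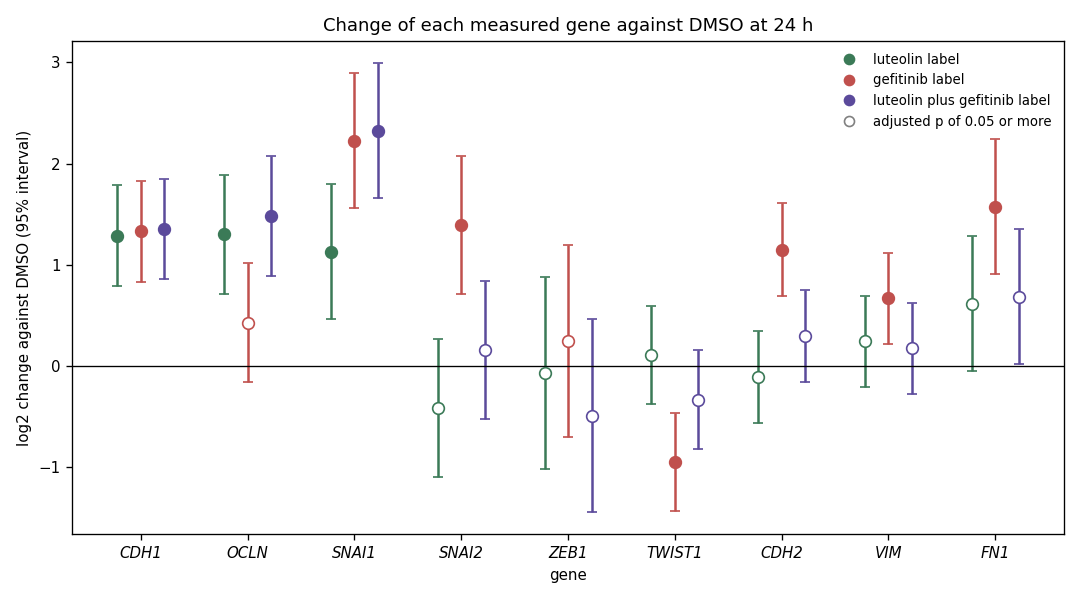
Log2 change against DMSO at 24 h of the 9 measured members for the 3 drug labels, with 95% intervals from the limma fit; filled points passed at an adjusted p under 0.05. CDH1 and SNAI1 are filled for all 3 labels, OCLN for luteolin and for the combination, and SNAI2, TWIST1, CDH2, VIM and FN1 for gefitinib.

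The mesenchymal markers rose with the gefitinib label. CDH2 (chr18:23786079-23786138, hg18, minus strand), the cadherin of neural and mesenchymal cells, had a signal of 275 and 268% of the 75th percentile at 0 h, 243 and 207% with DMSO, 209 and 206% with the luteolin label, 558 and 444% with the gefitinib label, and 237 and 320% with the combination label. The gefitinib arrays lay above all others. The rise was 2.22-fold (1.15 ± 0.20, limma adjusted p = 0.0026), and the changes of -0.11 ± 0.20 with the luteolin label and 0.30 ± 0.20 with the combination label did not pass (limma adjusted p = 0.72 and 0.25). CDH2 was lower with the luteolin label than with the gefitinib label by 1.26 ± 0.20 (limma adjusted p = 0.0011) and lower with the combination than with the gefitinib label by 0.85 ± 0.20 (limma adjusted p = 0.0087). Unscaled, the CDH2 signals with DMSO (3282 and 2652) and with the gefitinib label (3630 and 2791) overlapped, and the change was 0.11 (limma adjusted p = 0.74).

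FN1, an extracellular matrix glycoprotein, was read by 3 probes. On the brightest (chr2:215934577-215934978, hg18, minus strand), spotted 10 times, the signal was 432 and 357% of the 75th percentile at 0 h, 261 and 194% with DMSO, 410 and 290% with the luteolin label, 801 and 560% with the gefitinib label, and 297 and 440% with the combination label. The gefitinib arrays were the highest and the DMSO arrays the lowest. The 10 spots on DMSO replicate 2 ran from 1222 to 2940, an SD of 0.37 on the log2 scale, where the other arrays had 0.07 to 0.14. The rise with the gefitinib label was 2.98-fold (1.57 ± 0.29, limma adjusted p = 0.0033), and the other probes gave 1.31 and 1.65 and passed as well. With the luteolin and combination labels the changes were 0.62 ± 0.29 and 0.68 ± 0.29 and did not pass (limma adjusted p = 0.16 and 0.089). FN1 was lower with the luteolin label than with the gefitinib label by 0.96 ± 0.29 (limma adjusted p = 0.021), and lower with the combination than with the gefitinib label by 0.89 ± 0.29 (limma adjusted p = 0.035). The other probes passed as well for luteolin against gefitinib. For the combination against gefitinib they gave -0.84 and -0.80 and did not pass (limma adjusted p = 0.053 and 0.052). Against 0 h in place of DMSO the change with the gefitinib label was 0.77 (limma adjusted p = 0.052), and without scaling it was 0.53 against DMSO (limma adjusted p = 0.21).

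VIM, the intermediate filament protein of mesenchymal cells, had signals of 63404 to 116476 on its brighter probe (chr10:17318353-17319262, hg18, plus strand). As a percentage of the 75th percentile this was 7842 and 7802 at 0 h, 8629 and 8568 with DMSO, 9726 and 10649 with the luteolin label, 13080 and 14284 with the gefitinib label, and 8028 and 11746 with the combination label. On that scale the gefitinib arrays were the highest. The rise was 1.59-fold (0.67 ± 0.20, limma adjusted p = 0.021), and the second probe gave 0.43 ± 0.19 and did not pass (limma adjusted p = 0.087). The direction depended on the scaling, since VIM changed by -0.19 with the gefitinib label after quantile normalization (limma adjusted p = 0.30) and by -0.37 without scaling (limma adjusted p = 0.18). With the combination label the change of 0.18 ± 0.20 (limma adjusted p = 0.49) became a fall of -0.48 after quantile normalization (limma adjusted p = 0.034) and of -0.77 without scaling (limma adjusted p = 0.018). The call with the gefitinib label was also lost without DMSO replicate 1, DMSO replicate 2 or gefitinib replicate 2, at changes of 0.61 to 0.67 (limma adjusted p = 0.080 to 0.093).

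**Figure D3:**
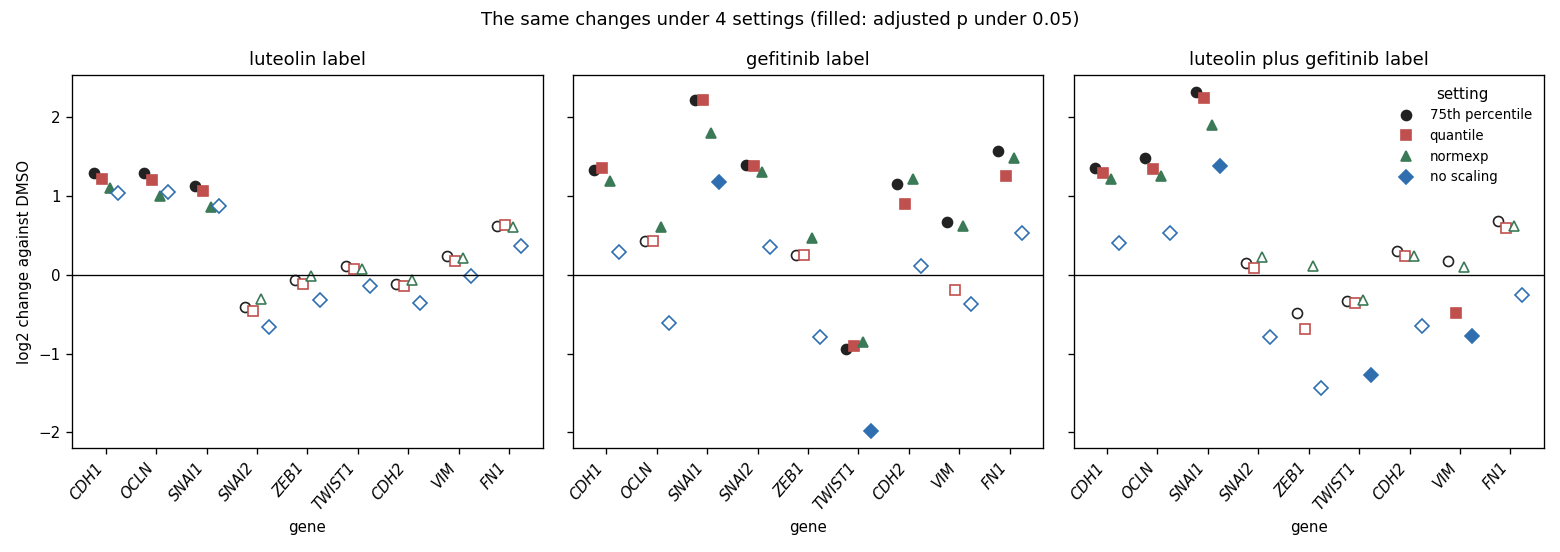
Log2 change against DMSO of the 9 measured members under 4 settings, namely scaling to the 75th percentile, quantile normalization, normexp background correction and no scaling between arrays, with 1 panel for each drug label; filled symbols passed at an adjusted p under 0.05. SNAI1 is filled under all 4 settings with the gefitinib and combination labels, and TWIST1 with the gefitinib label. VIM changes sign between settings with every label. So do TWIST1 with the luteolin label, OCLN and ZEB1 with the gefitinib label, and CDH2, FN1, SNAI2 and ZEB1 with the combination label.

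The 4 members with more than 1 probe kept, OCLN, TWIST1, VIM and FN1, tested whether the changes were those of a single probe. All 4 had probes of 1 sign with the luteolin label and with the gefitinib label, and 3 of 4 had with the combination label, where the VIM probes gave 0.18 and -0.03. The probes shared their call in 4 members with the luteolin label, in 2 with the gefitinib label, where VIM and TWIST1 passed on the brighter probe alone, and in 3 with the combination label, where an FN1 probe on chromosome 2 (chr2:215996462-215997140) passed at 0.85 ± 0.29 (limma adjusted p = 0.047) and the brightest did not.

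**Figure D4:**
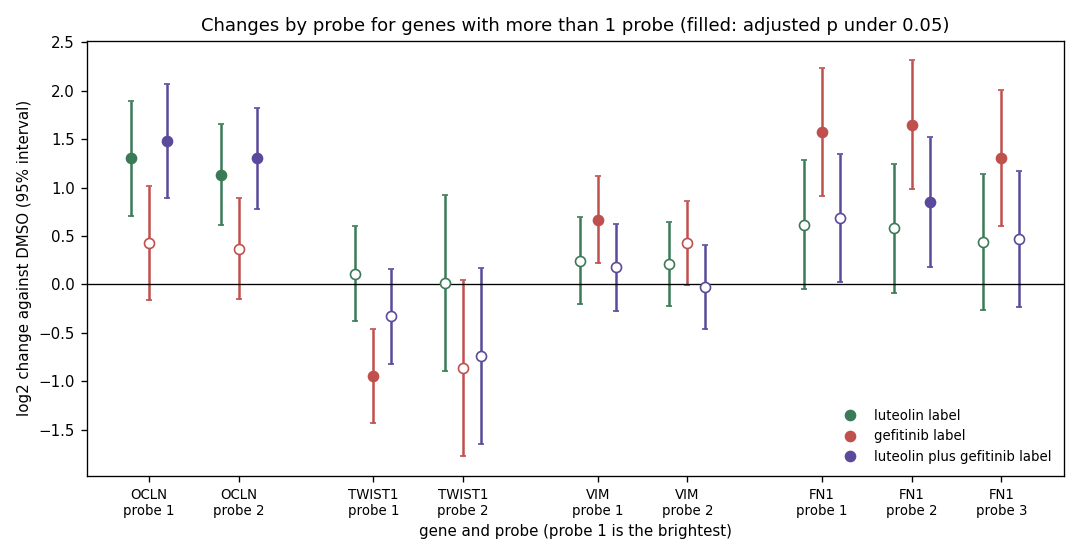
Log2 change against DMSO by probe, with 95% intervals, for the 4 members with more than 1 probe kept; probe 1 is the brightest and filled points passed at an adjusted p under 0.05. The OCLN probes share calls with every label, and the 3 FN1 probes all pass with the gefitinib label.

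DMSO itself was compared with 0 h. No member passed (0 of 9 by limma, where 0.0355% of all genes passed, 0.0254% higher and 0.0101% lower), 1 member, FN1, had an unadjusted limma p under 0.05, and the methods' 1-sample test without adjustment gave 2, VIM and ZEB1. FN1 changed by -0.80 ± 0.29 between 0 h and DMSO (limma adjusted p = 0.70) and CDH1 by -0.41 ± 0.22 (limma adjusted p = 0.92), and the other 7 changed by -0.42 to 0.20. The rises in CDH1, OCLN and SNAI1 were also present against 0 h. CDH1 was then 0.88, 0.92 and 0.95 higher with the luteolin, gefitinib and combination labels (limma adjusted p = 0.018, 0.0084 and 0.011). OCLN was 1.50 higher with the luteolin label (limma adjusted p = 0.0041) and 1.68 higher with the combination label (limma adjusted p = 0.0027), and SNAI1 was 1.09, 2.18 and 2.28 higher (limma adjusted p = 0.024, 0.00093 and 0.0015).

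The drug labels were compared directly to see where the members parted. The combination exceeded luteolin in SNAI1 alone, 1 of 9 members, where 41.8% of all genes differed (23.5% higher and 18.3% lower with the combination). Between the combination and gefitinib labels 5 members differed, with OCLN and TWIST1 higher and CDH2, FN1 and SNAI2 lower with the combination, where 47.4% of all genes differed (24.5% higher and 22.9% lower with the combination). Between the luteolin and gefitinib labels 6 differed, with OCLN and TWIST1 higher and CDH2, FN1, SNAI1 and SNAI2 lower with luteolin, where 60.4% of all genes differed (27.2% higher and 33.2% lower with luteolin). These comparisons share arrays and are not independent of each other. The calls are those of the brightest probe. The second TWIST1 probe passed in neither comparison with the gefitinib label, and the other FN1 probes did not pass for the combination against gefitinib. With DMSO as the reference, the combined change was also set against the 2 single-drug changes added together. CDH1 fell short of that sum by 1.27 ± 0.31 (limma adjusted p = 0.015) and FN1 by 1.51 ± 0.41 (limma adjusted p = 0.024), 2 of 9 members, where 34.2% of all genes departed from it (17.9% above and 16.3% below). The FN1 probes did not all share this call.

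If the treatments in the scanner file names are taken instead, the same arrays carry other names and the values against DMSO pass to them unchanged. The pattern with CDH2, VIM, FN1 and SNAI2 raised and TWIST1 lowered then belongs to the combination, and the rises in OCLN belong to the arrays of luteolin alone and gefitinib alone. The rises in CDH1 and SNAI1 with 3 of 3 drug treatments stand under either set of names. The share of all genes departing from additivity under the file names is not given here, so the count of members is by itself no result about them. Under the file names 5 members departed from additivity. They were CDH1 (-1.31 ± 0.31, limma adjusted p = 0.0092), OCLN (-2.35 ± 0.36, limma adjusted p = 0.0014) and SNAI1 (-1.23 ± 0.41, limma adjusted p = 0.040), below the sum, and CDH2 (0.96 ± 0.28, limma adjusted p = 0.023) and SNAI2 (1.65 ± 0.42, limma adjusted p = 0.013), above it. FN1 then did not depart (0.27 ± 0.41, limma adjusted p = 0.63).

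Wider lists of genes with related roles were read in the same fit, and are described by counts and medians beside those of all genes, with single genes of each list as examples. No list was tested as a set, and the lists were chosen with earlier results known. Of all genes, 14.3% were higher and 11.8% lower with the luteolin label, 32.9% and 22.1% with the gefitinib label, and 25.1% and 16.2% with the combination label. Of 40 other epithelial junction and identity genes 38 were measured. There, 9 were higher and 3 lower with the luteolin label (median log2 change 0.45, beside 0.08 over all genes), with the gefitinib label 11 were higher and 5 lower (0.07, beside 0.22), and with the combination label 6 were higher and 6 lower (0.11, beside 0.16). The share higher was 23.7% with the luteolin label, above that of all genes, and 28.9% and 15.8% with the gefitinib and combination labels, below it. These genes did not move as a block with CDH1. The keratin KRT7 had a signal of 645 and 642% of the 75th percentile at 0 h and 241 and 281% with DMSO. It was at 78.0 and 65.8% with the luteolin label and 907 and 837% with the gefitinib label. Against DMSO, KRT7 fell by 1.86 ± 0.17 with the luteolin label (limma adjusted p = 0.00055). It rose by 1.74 ± 0.17 with the gefitinib label (limma adjusted p = 0.00024), but the gefitinib arrays lay much less far above 0 h than above DMSO. The tight junction gene CLDN4 fell by 2.67 ± 0.38 with the gefitinib label (limma adjusted p = 0.0012), and MARVELD3, a relative of occludin, rose by 1.59 ± 0.45 (limma adjusted p = 0.018). The MARVELD3 signal was 47.5 and 28.8% of the 75th percentile at 0 h and 25.1 and 21.7% with DMSO. With the gefitinib label it was 41.6 and 118%, so those arrays lay far apart and 1 was below a 0 h array. The epithelial transcription factor ELF3 rose by 1.81 ± 0.36 with the luteolin label (limma adjusted p = 0.0089) and by 2.32 ± 0.36 with the combination label (limma adjusted p = 0.0029). The tight junction gene CGN fell by 1.35 ± 0.25 with the luteolin label (limma adjusted p = 0.0065). MARVELD2 (tricellulin) rose by 1.51 ± 0.16 (limma adjusted p = 0.0010) and CLDN3 fell by 1.21 ± 0.32 with the combination label (limma adjusted p = 0.019).

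Of 39 mesenchymal and matrix genes 33 were measured. Of these, 4 were higher and 3 lower with the luteolin label (median 0.03, beside 0.08 over all genes), with the gefitinib label 12 were higher and 7 lower (0.57, beside 0.22), and with the combination label 6 were higher and 6 lower (0.03, beside 0.16). With the gefitinib label 36.4% were higher and 21.2% lower, close to the 32.9% and 22.1% of all genes, so these counts are no result about the list. The calcium-binding protein gene S100A4 and the tropomyosin gene TPM2 were among the 3 largest changes with both single-drug labels. S100A4 rose by 1.34 ± 0.23 with the luteolin label (limma adjusted p = 0.0052) and by 1.67 ± 0.23 with the gefitinib label (limma adjusted p = 0.0011). TPM2 rose by 1.26 ± 0.29 (limma adjusted p = 0.016) and by 1.44 ± 0.29 (limma adjusted p = 0.0048). In the other direction, the receptor kinase gene AXL fell by 1.30 ± 0.23 with the luteolin label (limma adjusted p = 0.0059). The ligand gene WNT5A fell by 1.86 ± 0.27 with the gefitinib label (limma adjusted p = 0.0014) and fell by 1.43 ± 0.27 with the combination label (limma adjusted p = 0.0061). DAB2, an endocytic adaptor, fell by 2.19 ± 0.23 with the combination label (limma adjusted p = 0.00089) and the collagen gene COL1A1 fell by 1.54 ± 0.30 (limma adjusted p = 0.0061).

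Of 34 other regulators of the transition 30 were measured. Here 3 were higher and 5 lower with the luteolin label (median -0.03, beside 0.08 over all genes), with the gefitinib label 7 were higher and 10 lower (-0.24, beside 0.22), and with the combination label 2 were higher and 10 lower (0.04, beside 0.16). The share lower was 16.7%, 33.3% and 33.3% with the 3 labels, where 11.8%, 22.1% and 16.2% of all genes were lower. Of the helix-loop-helix inhibitors, ID1 fell by 2.69 ± 0.36 (limma adjusted p = 0.00097) and ID2 fell by 2.27 ± 0.27 (limma adjusted p = 0.00054) with the gefitinib label, and the transcription factor SOX4 fell by 2.32 ± 0.27 (limma adjusted p = 0.00055). With the combination label ID3 fell by 1.50 ± 0.36 (limma adjusted p = 0.013), the Notch ligand JAG1 fell by 1.63 ± 0.29 (limma adjusted p = 0.0047), and TWIST2, the close relative of TWIST1, fell by 2.58 ± 0.48 (limma adjusted p = 0.0055). TWIST2 was at 63.6 and 68.5% of the 75th percentile with DMSO and at 19.7 and 6.20% with the combination label. SMAD3, a mediator of TGF-beta signalling, fell by 1.79 ± 0.35 with the luteolin label (limma adjusted p = 0.0083), the histone methyltransferase EZH2 fell by 1.58 ± 0.16 (limma adjusted p = 0.00083), and the deacetylase SIRT1 rose by 1.23 ± 0.22 (limma adjusted p = 0.0060).

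Of the 10 genes of the cadherin-catenin complex 8 were measured. Among them 2 were higher and 1 lower with the luteolin label (median 0.32, beside 0.08 over all genes), with the gefitinib label 1 was higher and 2 lower (0.10, beside 0.22), and with the combination label 0 were higher and 2 lower (-0.12, beside 0.16). Either way, 3, 3 and 2 of 8 passed, where 26%, 55% and 41.3% of all genes did. Both probes of CTNNA1, which encodes the alpha-catenin that links E-cadherin to actin and is known to be lost in PC-3, were above background on 0 of 10 arrays, so no level of it stands beside that of CDH1. JUP (plakoglobin) rose by 0.89 ± 0.23 (limma adjusted p = 0.023) and the scaffold gene IQGAP1 by 0.75 ± 0.16 (limma adjusted p = 0.010) with the luteolin label, and VCL (vinculin) fell by 0.56 ± 0.16 (limma adjusted p = 0.034). The beta-catenin gene CTNNB1 rose by 0.51 ± 0.17 with the gefitinib label (limma adjusted p = 0.030), the p120-catenin gene CTNND1 fell by 0.64 ± 0.18 (limma adjusted p = 0.019), and the nectin gene PVRL2 fell by 1.66 ± 0.18 (limma adjusted p = 0.00036). With the combination label VCL fell by 0.64 ± 0.16 (limma adjusted p = 0.015) and CTNND1 fell by 0.54 ± 0.18 (limma adjusted p = 0.048).

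**Figure D5:**
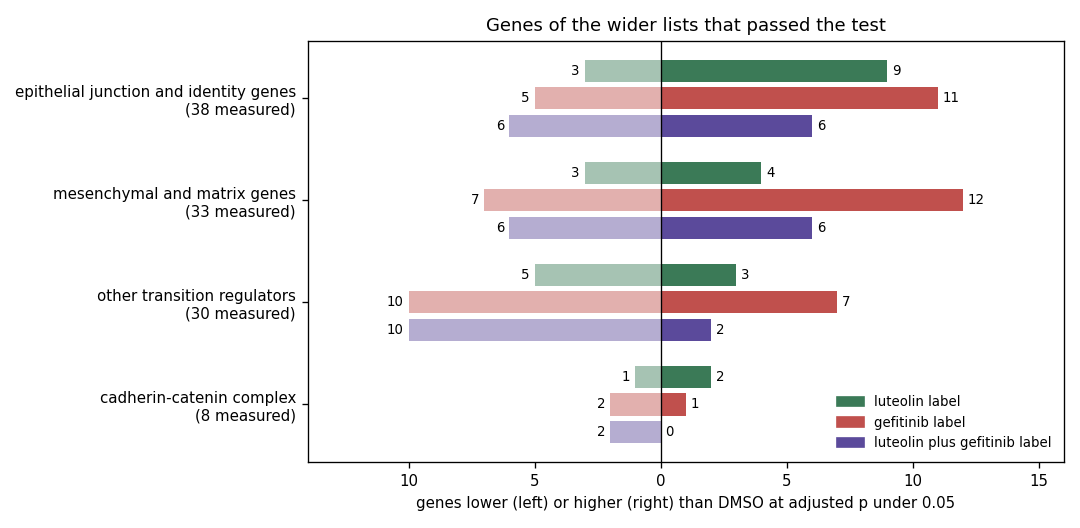
Number of genes of the 4 wider lists that were lower (left) or higher (right) than DMSO at an adjusted p under 0.05, for each drug label. The regulators have more genes lower than higher with all 3 labels, where all genes have more higher than lower; the mesenchymal counts with the gefitinib label (12 higher, 7 lower of 33) are close to the shares of all genes (32.9% and 22.1%).

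The genes whose levels ran closest to a member over the 10 arrays were found by the root mean square distance between profiles centred on their own mean, on the log2 scale. For CDH1 they were CD7 (0.13) and SH3YL1 (0.15), where the CDH1 profile itself had a root mean square of 0.59. For SNAI1 they were an expressed sequence, BU602485 (0.19), and B3GNT5 (0.22). For CDH2 they were SCMH1 (0.07) and OR7E125P (0.09), for VIM AKT1S1 and KIF1C (0.09 each), for TWIST1 BTBD10 (0.09) and C2orf29 (0.11), and for FN1 C21orf87 (0.18) and LYRM1 (0.20). For SNAI2 the nearest were THC2669096 (0.16) and CLTB (0.19), and for OCLN THC2582897 (0.17) and THC2750786 (0.21). All distances are over the same 10 arrays, with their shared scaling. In these bulk samples a change in the share of cells that hold a transcript and a change in the transcript per cell cannot be told apart.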

How the data were processed

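The authors deposited the scanner output of each of the 10 arrays. Per the file headers the values are intensities on a linear scale, written by Agilent Feature Extraction 10.7.3.1 with background subtracted within the array and no scaling between arrays. The methods name another version of that software. The deposited series-wide values were the same (100% of spots), and 0 columns of per-sample values were unused. Probe positions are on hg18, as in the scanner files, and exons were not looked up because the gene table at hand is of GRCh38.p14. No sequencing depth applies to arrays, and 2 arrays a group limit the precision.

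The tools were limma 3.58.1 in R 4.3.3. Outlier spots were left out, spots of a probe were averaged as log2 values, and the log2 of the array's 75th percentile was subtracted. Probes were kept where some group (at least 1 of 5) had them well above background on each of its arrays (28774 probes, 19717 genes), a probe counting as such when at least 50% of its spots did. A gene was read from its brightest probe. One limma fit of 5 groups on all 10 arrays (5 residual and 3.36 prior degrees of freedom) gave every change, its SE and its Benjamini-Hochberg adjusted p. The fit was tested on simulated data. Nothing in the labels says that replicates came from separate cultures beyond the word biological, so p-values measure the spread between these arrays.

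Named genes are the 10 members, for each list and drug label the 3 with the largest change among genes that passed and were well above background on all 4 arrays compared, and for each member called the 2 nearest in profile. The members and lists were chosen with earlier results of these data known. Some markers of the tissue are not reported here. Alternatives were normexp (offset 50), quantile normalization, other filters, slide or replicate number as a block, file-name treatments, 0 h as reference, a 2-fold minimum, the median over probes, the 1-sample test of the methods and leaving out each array. No scaling between arrays and scaling to the median of probes above background on all 10 arrays were added after seeing the data, as were within-slide values.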

Additional observations from a re-analysis of the deposited data

Results flagged for a closer look

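For 2 members the change with both drugs differed from the sum of the changes with either drug, by the interaction test in limma. Of all genes, 34.2% departed from that sum, so the count of members is by itself no result about them. Neither member passed without scaling between arrays. CDH1 fell short of the sum by 1.27 on the log2 scale (-1.27, 95% interval -1.97 to -0.57, limma adjusted p = 0.015), with all 3 drug pairs of arrays at a like level. FN1 fell short by 1.51 (-1.51, 95% interval -2.45 to -0.57, limma adjusted p = 0.024), and 1 of its DMSO arrays had the widest spread between spots of the probe. Of the other FN1 probes, 1 gave -1.38 and passed (limma adjusted p = 0.033) and 1 gave -1.28 and did not (limma adjusted p = 0.052). Under the treatments of the scanner file names the CDH1 value was -1.31 (limma adjusted p = 0.0092) and the FN1 value 0.27 (limma adjusted p = 0.63). The number of members departing from additivity moved on leaving out single arrays.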

How the results depend on the processing

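Outside the settings that leave out an array, 89 of the counts of members called stayed within 1.5 times the main count and 26 did not. Of the single changes of members, 489 values kept direction and call, 38 lost the call, 12 gained it and 28 reversed. Signal over background limits ZEB2 and ZEB1, and the scaling limits most of the rest, since the 75th percentile differed between groups. The cause of the moves below was not tested, except that a 2-fold minimum can only lower the number of calls. Leaving out an array both raised and lowered counts. The share of all genes called under each setting is not given here, so the counts below are by themselves no result about the members.

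Without scaling 0 members were called with the luteolin label, 2 with the gefitinib label (SNAI1 and TWIST1), 3 with the combination label (SNAI1, with TWIST1 and VIM lower), 2 for the combination against luteolin, 1 for the combination against gefitinib, 3 for luteolin against gefitinib and 0 for additivity. Scaling to the median of probes above background on all 10 arrays changed no count by over 1.5 times. With normexp 4 members departed from additivity. With quantile normalization 2 differed between the combination and luteolin and 3 between the combination and gefitinib. The latter count was also 3 with no filter on dim probes, 3 with slide as a block, 3 with the median over probes, 2 with a 2-fold minimum and 1 when the fit held the compared groups alone. The median over probes left 1 member departing from additivity. With the file names 3 members changed for gefitinib, 7 for the combination, 5 for the combination against luteolin, 1 for luteolin against gefitinib and 5 for additivity. The methods' t-test, a 1-sample test against the mean of the reference arrays with 1 degree of freedom, called 0 members with each label after adjustment, and without adjustment 1 with the gefitinib label (TWIST1), 1 with the combination label (CDH1) and 2 for DMSO against 0 h (VIM and ZEB1).

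The arrays share replicate numbers, but the numbers are not stated to mark a shared culture or day, and same-numbered arrays deviated together with correlations of -0.10 to 0.29 across probes. With the replicate block 3, 7 and 3 members were called with the luteolin, gefitinib and combination labels, and no count moved by over 1.5 times.

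Leaving out each array in turn, the counts ran from 1 to 3 with the luteolin label (1 without DMSO replicate 1 or 2 or luteolin replicate 2), 6 to 7 with the gefitinib label and 3 to 7 with the combination label (7 without combination replicate 1, where VIM and FN1 rose and ZEB1 and TWIST1 fell). They ran from 0 to 4 for the combination against luteolin (0 without either luteolin array or combination replicate 2, 4 without combination replicate 1), 2 to 6 for the combination against gefitinib (3 without either gefitinib array, 2 without combination replicate 1), 4 to 7 for luteolin against gefitinib and 0 to 6 for additivity (0 without DMSO replicate 2, 1 without luteolin or gefitinib replicate 1, 4 without gefitinib replicate 2 and 6 without combination replicate 2). The lone array of a group was assumed to vary like the others.

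Reversed values against DMSO, on the log2 scale, were mostly of members not called. With the luteolin label, they were VIM -0.00855 and TWIST1 -0.14 without scaling, CDH2 0.30, SNAI2 0.16 and TWIST1 -0.33 with the file names, and FN1 -0.19 and TWIST1 -0.067 against 0 h. With the gefitinib label, they were OCLN -0.61, VIM -0.37 and ZEB1 -0.80 without scaling, VIM -0.19 after quantile normalization, ZEB1 -0.062 with slide as a block, CDH2 -0.11, ZEB1 -0.067, SNAI2 -0.41 and TWIST1 0.11 with the file names, and ZEB1 -0.18 against 0 h. With the combination label, they were CDH2 -0.65, VIM -0.77, FN1 -0.26 and SNAI2 -0.79 without scaling, VIM -0.48 after quantile normalization, ZEB1 0.11 with normexp, ZEB1 0.25 with the file names, and FN1 -0.12 and SNAI2 -0.13 against 0 h. For DMSO against 0 h, SNAI1 was 0.081 with normexp and 0.013 after quantile normalization. Leaving out each array turned the sign within these ranges. With the luteolin label CDH2 ran from -0.23 to 0.0058 and ZEB1 from -0.16 to 0.021, with the gefitinib label ZEB1 ran from -0.061 to 0.55, with the combination label VIM ran from -0.099 to 0.45, ZEB1 from -1.21 to 0.23 and SNAI2 from -0.075 to 0.39, and for DMSO against 0 h SNAI1 ran from -0.22 to 0.13.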
